A study of Homo sapiens with 6 samples.

Results

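The AP-1 and immediate early set holds 10 genes, which were followed after depletion of LSD1 in MDA-MB231 cells, an established triple-negative breast cancer line of mesenchymal character. They were taken by symbol: FOS, FOSB, FOSL1, FOSL2, JUN, JUNB, JUND, ATF3, EGR1 and MYC, 10 of the 23368 genes in the count table. LSD1, encoded by KDM1A, is a lysine demethylase of histones that works mainly as a corepressor. Cells grown in DMEM with 10% fetal calf serum received a control siRNA, siControl, or 1 of 2 LSD1 siRNAs, called siL1 and siL2. Each group gave 2 RNA-seq libraries. All groups had thus been transfected, and all come from a single cell line. In such bulk RNA, fewer cells of a type and less RNA per cell cannot be told apart. The time from transfection to harvest is not given in the sources used here. Nor do the labels say whether the replicates were separate cultures, so p-values measure the spread between these libraries, which may be technical.

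AP-1 is a dimer of basic leucine zipper (bZIP) proteins, usually a JUN family protein with a FOS family protein, and it binds the motif TGACTCA. FOS, FOSB, JUN, JUNB and EGR1 are classical immediate early genes: growth factors and stress switch them on within minutes, through ERK, JNK and p38 kinases and through the factor SRF with its ternary complex partners, which bind the CArG box. FOSL1, coding for FRA-1, and FOSL2, coding for FRA-2, accumulate later and last longer, and FRA-1 is typical of mesenchymal-like breast cancer cells. ATF3 is a stress-induced bZIP factor, EGR1 a zinc finger factor, and MYC a factor that pairs with MAX and drives ribosome biogenesis and growth.

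The promoters of 4 members are shown because they include members with and without an exact match to the motifs searched. FOSL2 and JUNB were also the AP-1 subunits that moved most. Each sequence holds the 250 bases before the RefSeq transcription start on GRCh38.p14, read along the coding strand, with matches in capitals. EGR1 lies at chr5:138465229-138465478 (plus strand), JUND at chr19:18281623-18281872 (minus strand), JUNB at chr19:12791236-12791485 (plus strand) and FOSL2 at chr2:28392608-28392857 (plus strand).
EGR1: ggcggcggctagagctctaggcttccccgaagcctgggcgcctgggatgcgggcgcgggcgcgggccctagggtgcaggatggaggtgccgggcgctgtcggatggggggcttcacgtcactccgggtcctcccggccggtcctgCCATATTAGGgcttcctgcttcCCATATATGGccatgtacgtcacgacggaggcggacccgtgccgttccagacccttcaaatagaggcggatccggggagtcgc
JUND: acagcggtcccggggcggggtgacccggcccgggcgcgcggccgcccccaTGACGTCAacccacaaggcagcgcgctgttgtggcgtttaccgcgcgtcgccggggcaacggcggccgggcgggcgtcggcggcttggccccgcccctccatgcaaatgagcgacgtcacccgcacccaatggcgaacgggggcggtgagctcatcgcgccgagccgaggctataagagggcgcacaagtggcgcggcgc
JUNB: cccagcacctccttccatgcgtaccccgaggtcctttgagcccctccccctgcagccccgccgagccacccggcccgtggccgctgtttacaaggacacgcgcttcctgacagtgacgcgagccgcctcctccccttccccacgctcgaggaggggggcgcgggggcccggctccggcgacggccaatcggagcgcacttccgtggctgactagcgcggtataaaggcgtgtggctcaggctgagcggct
FOSL2: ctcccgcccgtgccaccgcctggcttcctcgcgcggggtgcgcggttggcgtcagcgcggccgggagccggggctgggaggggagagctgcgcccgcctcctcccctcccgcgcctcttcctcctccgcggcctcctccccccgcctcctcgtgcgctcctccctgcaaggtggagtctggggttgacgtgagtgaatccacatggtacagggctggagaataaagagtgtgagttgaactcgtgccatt

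The capitals in EGR1 mark a pair of CArG boxes, at -105 to -96 and at -83 to -74 from the start. Those in JUND mark a cAMP response element, TGACGTCA, the site of ATF and CREB dimers, at -200 to -193. JUNB and FOSL2 held none of the 3 motifs searched on both strands (TGACTCA, TGACGTCA and the CArG box), and neither did FOS, FOSB, JUN or ATF3 in the same window. Of 35116 promoters of this length, 4.20% held TGACTCA, 1.65% held TGACGTCA and 1.16% held a CArG box. The 3 motifs share no match here. A match describes letters only.

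The knockdown and the identity of the cells were checked first. KDM1A stood at 158 and 165 CPM (a gene's counts scaled to a fixed library total) with siControl, at 27.7 and 28.1 CPM after siL1, and at 17.4 and 18.1 CPM after siL2. The libraries held 22047738 to 26765079 counts, so that a count of 3 equals 0.112 to 0.136 CPM, counting error only. The mesenchymal-line markers VIM, CD44, EGFR, AXL, CAV1 and MSN summed to 7915 to 8734 CPM, and of 6 luminal genes ESR1, PGR and CDH1 stayed below 1 CPM in every library. The other luminal genes were present, KRT8 at 203 to 261 CPM, ERBB2 at 46.6 to 59.8 CPM and EPCAM at 9.34 to 12.6 CPM. Of 8 blood cell markers 7 stayed below 1 CPM in every library, and the other, CD68, is also found in many tumour cells. Of 8 fibroblast and endothelial markers 5 stayed below 1 CPM, and their sum was 8.25 to 8.39 CPM with siControl, 21.5 to 22.3 CPM with siL1 and 13.2 to 14.9 CPM with siL2. COL1A1 and PDGFRB made up most of that sum. Its part in the results was not tested.

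At baseline the AP-1 pool of these cells was mostly FOSL1 and JUN at the RNA level. Levels were compared between genes as CPM per kb of exon length. FOSL1 stood at 202 and 205 CPM per kb in the siControl libraries, MYC at 104 and 117, JUN at 58.7 and 59.9 and JUND at 28.8 and 28.5. Next came FOSL2 at 11.3 and 12.4 CPM per kb and JUNB at 9.62 and 9.49. EGR1 (5.68 and 7.61), ATF3 (3.36 and 3.50), FOS (1.42 and 1.93) and FOSB (0.351 and 0.328) were lowest on the same scale. No neighbours in this order overlapped between the siControl libraries. With siL2, JUNB (5.63 and 6.60 CPM per kb) and EGR1 (5.36 and 6.91) did overlap. FOSL1 made up 93.6% of the summed FOS family level per kb, FOSL2 5.45%, FOS 0.771% and FOSB 0.157%. In the JUN family, JUN held 60.8%, JUND 29.4% and JUNB 9.80%. Exon lengths came from another annotation than the counts, and the order was the same with all transcripts in place of coding ones.

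**Figure D1:**
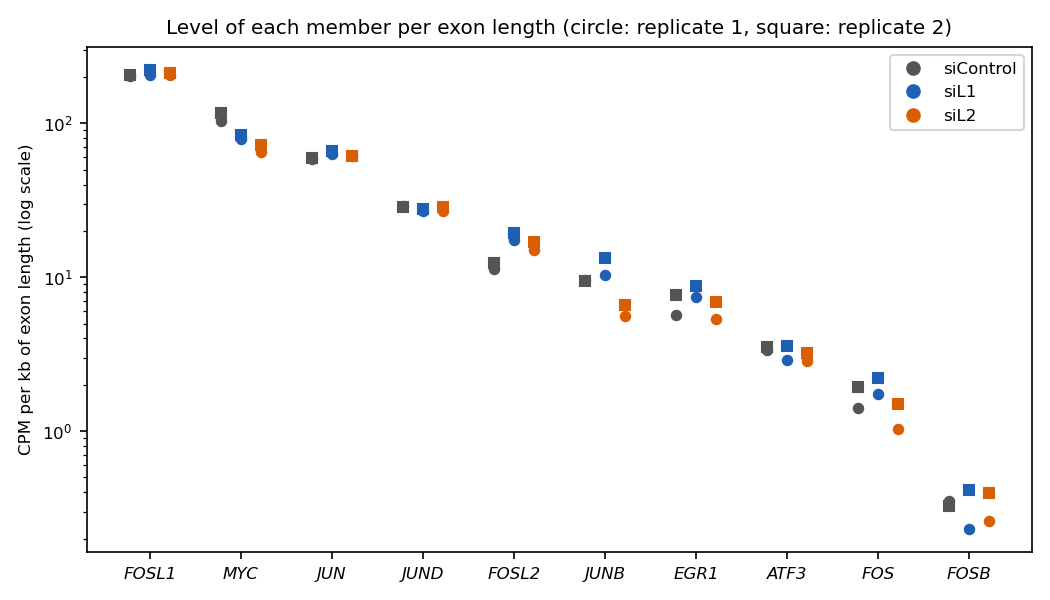
CPM per kb of exon length (log scale) of each member in each of the 6 libraries, ordered by the siControl mean. FOSL1 lies above all others at about 203 CPM per kb with siControl, and FOSB is lowest at 0.340.

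Both siRNAs moved the same 2 members the same way: FOSL2 rose and MYC fell with each. JUNB went opposite ways, higher with siL1 and lower with siL2. JUN rose slightly with siL1. FOSL1, the member with the most RNA per kb, did not pass the test with either siRNA, nor did FOS, FOSB, JUND, ATF3 or EGR1. With siL1, 4 of 10 members passed the threshold (edgeR quasi-likelihood test, Benjamini-Hochberg adjusted p under 0.05 over 13322 genes), against 50.4% of all genes tested: 3 rose (24.7% of all genes) and 1 fell (25.7%). With siL2, 3 of 10 passed, against 45.8% of all genes: 1 rose (22.6%) and 2 fell (23.3%). These shares do not stand above the background of either comparison. Without siControl replicate 1 or siL1 replicate 2, only FOSL2 and MYC passed with siL1. The median log2 fold change of the members was 0.10 with siL1 and -0.09 with siL2, beside -0.01 and -0.00358 for all genes. Their median absolute change was 0.18 and 0.16, beside 0.24 and 0.21 for all genes. The 2 comparisons share the siControl libraries. How many of all genes were called in the same direction with both siRNAs was not counted, so FOSL2 and MYC have no such background beside them.

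**Figure D2:**
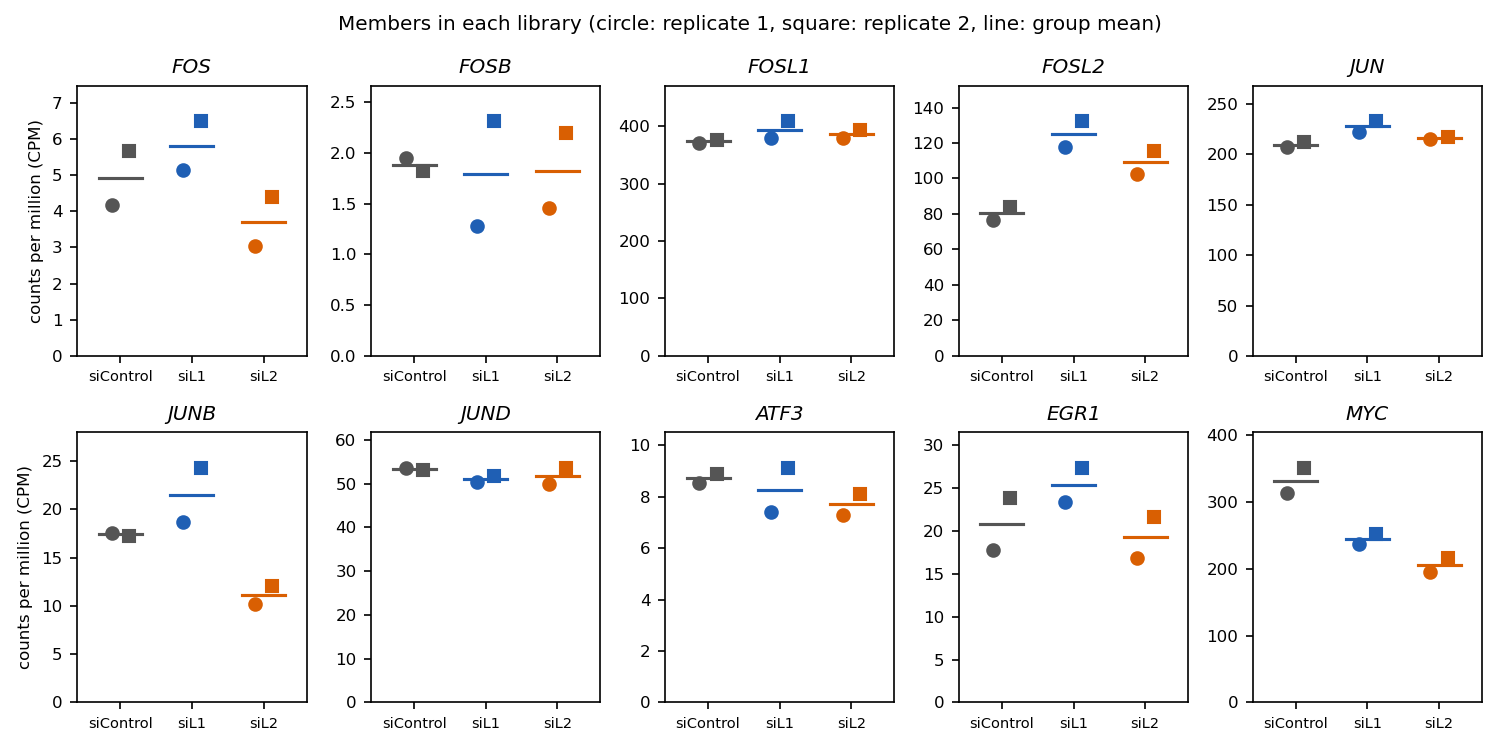
CPM of the 10 members in each library, with circles for replicate 1, squares for replicate 2 and lines for group means. FOSL2 is higher and MYC lower in all 4 LSD1 siRNA libraries than in the siControl libraries, whereas JUNB is highest with siL1 and lowest with siL2.

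FOSL2, whose product FRA-2 dimerises with JUN proteins, showed the largest rise. It stood at 76.8 and 84.0 CPM with siControl, 118 and 132 CPM after siL1, and 103 and 116 CPM after siL2. Every LSD1 siRNA library lay above both siControl libraries. FOSL2 rose after siL1 by 0.64 on the log2 scale (SE 0.0716, adjusted p = 1.06e-05, edgeR), a 1.56-fold change, and by 0.44 with siL2 (SE 0.0718, adjusted p = 0.000293), a 1.35-fold change. Its share of the FOS family level per kb went from 5.45% to 7.84% with siL1 and 7.07% with siL2. The authors' deposited table gives fold changes of 1.565 and 1.35. The rise with siL1 exceeded that with siL2 (log2 difference -0.21 for siL2 against siL1, adjusted p = 0.0276, edgeR), a call that ended without siL1 replicate 2 (-0.11, adjusted p = 0.280) or without siL2 replicate 1 (-0.12, adjusted p = 0.236).

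FOSL1 kept its place at the top of the family. It read 371 and 377 CPM with siControl, 379 and 408 CPM after siL1, and 379 and 392 CPM after siL2. The siRNA libraries lay just above the siControl libraries without overlap, but the differences were small. Its log2 fold change was 0.08 with siL1 (95% confidence interval -0.013 to 0.17, adjusted p = 0.143, edgeR) and 0.04 with siL2 (-0.051 to 0.13, adjusted p = 0.460). The siL1 value passed in 2 of 14 alternatives, with the replicate number as a block and without siL1 replicate 1 (0.14).

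FOS, the prototype immediate early subunit, was scarce. It stood at 4.17 and 5.67 CPM with siControl, 5.15 and 6.49 CPM after siL1, and 3.03 and 4.38 CPM after siL2. The siControl libraries overlapped with either siRNA group, while the siL1 and siL2 libraries did not overlap. Its log2 fold change against siControl was 0.24 with siL1 (95% confidence interval -0.19 to 0.67, adjusted p = 0.331, edgeR) and -0.43 with siL2 (-0.89 to 0.03, adjusted p = 0.119). The siL2 value passed in 4 of 14 alternatives. These were the replicate number as a block, no filter on low counts (-0.43, adjusted p = 0.0412, edgeR), and the fits without siControl replicate 1 (-0.63) or siL2 replicate 2 (-0.71). FOS was lower after siL2 than after siL1 (log2 difference -0.67, SE 0.204, adjusted p = 0.0165, edgeR). That call ended without siL1 replicate 2 (-0.48, adjusted p = 0.149) or siL2 replicate 1 (-0.41, adjusted p = 0.144).

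FOSB, an immediate early subunit close to FOS, had only 30 to 57 counts per library. Its level was 1.95 and 1.82 CPM with siControl, 1.28 and 2.31 CPM after siL1, and 1.46 and 2.19 CPM after siL2. The groups overlapped throughout. At this depth the 95% confidence interval of its log2 fold change ran from -0.70 to 0.58 with siL1 and from -0.69 to 0.57 with siL2. The rise of FOSL2 with siL2, 0.44, lies within the siL2 interval, and its rise with siL1, 0.64, lies just outside the siL1 interval.

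The JUN family behaved unevenly. JUN, the main partner by level, stood at 208 and 212 CPM with siControl, 223 and 233 CPM after siL1, and 216 and 217 CPM after siL2. Both siL1 libraries lay above all others. JUN rose after siL1 by 0.12 on the log2 scale (SE 0.0398, adjusted p = 0.0200, edgeR), a call that ended without siControl replicate 1 (0.11, adjusted p = 0.104) or siL1 replicate 2 (0.08, adjusted p = 0.180). With siL2 its log2 fold change was 0.04 (95% confidence interval -0.046 to 0.13, adjusted p = 0.443). The difference between the siRNAs did not pass (log2 difference -0.08, adjusted p = 0.1001). For JUN the authors' deposited table gives 1.09 with siL1 (adjusted p = 0.0890) and 1.03 with siL2 (adjusted p = 0.822), neither under 0.05.

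JUNB, which can restrain JUN and is itself an immediate early gene, had the widest range of group means among the members. It stood at 17.5 and 17.3 CPM with siControl, 18.7 and 24.3 CPM after siL1, and 10.2 and 12.01 CPM after siL2. The 3 groups did not overlap, and the siL1 libraries differed most between themselves. JUNB fell by 0.65 on the log2 scale with siL2 (SE 0.130, adjusted p = 0.00122, edgeR), to 0.637 of its siControl level. With siL1 it rose by 0.31 (SE 0.121, adjusted p = 0.0461), and this call rested on siL1 replicate 2: without that library the value was 0.10 (adjusted p = 0.534). It also ended without either siControl library (adjusted p = 0.106 and 0.136), with limma-voom (adjusted p = 0.0536) and with DESeq2 (adjusted p = 0.0797). JUNB was lower after siL2 than after siL1 by 0.96 on the log2 scale (log2 difference -0.96, SE 0.126, adjusted p = 4.73e-05, edgeR). That difference held in all 14 alternatives, at -1.14 to -0.75. The authors' deposited table gives 1.24 with siL1 (adjusted p = 0.322) and 0.638 with siL2 (adjusted p = 6.41e-06).

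Exons of HOOK2 overlap JUNB on the opposite strand, and without a stated strand setting their reads cannot be told apart. HOOK2 stood at 4.08 and 4.53 CPM with siControl, 6.55 and 7.42 CPM after siL1, and 6.99 and 5.28 CPM after siL2. HOOK2 was higher with both siRNAs (log2 fold change 0.70 and 0.51, adjusted p = 0.00301 and 0.0229, edgeR). The JUNB values were 0.31 with siL1 and -0.65 with siL2. The part of shared reads in either gene was not tested. None of the other 9 members overlapped another gene's exons in the annotation used. JUND, the steady JUN family member, stood at 53.7 and 53.1 CPM with siControl, 50.3 and 51.8 CPM after siL1, and 50.03 and 53.6 CPM after siL2. Its log2 fold change was -0.06 with siL1 (95% confidence interval -0.19 to 0.07) and -0.05 with siL2 (-0.17 to 0.08).

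The 3 genes whose log2 CPM followed JUNB most closely over the 6 libraries were the lipid kinase gene PIP5K1A (Pearson r = 0.994), the magnesium transporter gene CNNM4 (0.993) and the potassium channel gene KCNQ5 (0.993), out of 10446 genes of at least 5 CPM. The points share libraries and groups, and the likeness is in shape, not in size. With siL2 PIP5K1A fell by 0.20 on the log2 scale (adjusted p = 0.00618, edgeR), a call that ended without siL2 replicate 1 (adjusted p = 0.0553).

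ATF3 and EGR1 did not pass against siControl in the fit on group alone. ATF3 stood at 8.53 and 8.89 CPM with siControl, 7.40 and 9.13 CPM after siL1, and 7.29 and 8.12 CPM after siL2. The siL2 libraries lay below siControl, whereas those of siL1 lay on either side. Its log2 fold change was -0.07 with siL1 (95% confidence interval -0.35 to 0.21) and -0.18 with siL2 (-0.47 to 0.10). EGR1 stood at 17.8 and 23.9 CPM with siControl, 23.4 and 27.4 CPM after siL1, and 16.8 and 21.7 CPM after siL2. In each group replicate 2 was well above replicate 1, and siControl overlapped with both siRNA groups. Within each replicate number EGR1 was higher with siL1 and lower with siL2 than with siControl, though the labels do not pair the libraries. The log2 fold change of EGR1 was 0.29 with siL1 (95% confidence interval -0.016 to 0.59, adjusted p = 0.106, edgeR) and -0.13 with siL2 (-0.44 to 0.18, adjusted p = 0.5002). The siL1 value passed in 6 of 14 alternatives, among them with the replicate number as a block and without siControl replicate 2 (0.51). EGR1 was lower after siL2 than after siL1 (log2 difference -0.41, SE 0.139, adjusted p = 0.0270). This ended with DESeq2 (adjusted p = 0.180) and without siL1 replicate 2 (-0.29, adjusted p = 0.203) or siL2 replicate 1 (-0.23, adjusted p = 0.203).

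MYC showed the most stable fall. It stood at 313 and 351 CPM with siControl, 237 and 252 CPM after siL1, and 195 and 216 CPM after siL2. The 3 groups did not overlap, in the order siControl, siL1, siL2. MYC fell after siL1 by 0.44 on the log2 scale (SE 0.0601, adjusted p = 6.10e-05, edgeR), to 0.739 of siControl, and by 0.70 with siL2 (SE 0.0605, adjusted p = 1.32e-06), to 0.616. It was lower after siL2 than after siL1 (log2 difference -0.26, adjusted p = 0.00343). All 3 calls held in each of the 14 alternatives. KDM1A too was lower after siL2 than after siL1 (log2 difference -0.66, adjusted p = 4.36e-06, edgeR), and 23.7% of all genes were called lower in that comparison. Whether MYC follows the level of KDM1A was not tested. For MYC, fold changes of 0.741 and 0.616 stand in the authors' deposited table.

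**Figure D3:**
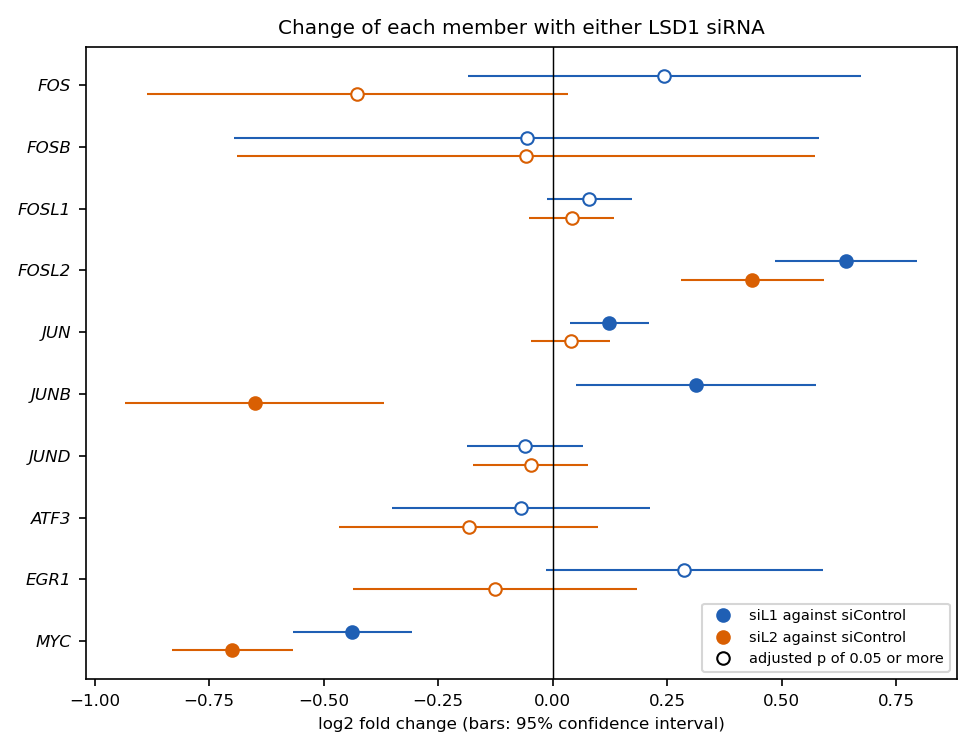
Log2 fold change of each member with siL1 (blue) and siL2 (orange) against siControl, with 95% confidence intervals and filled points for adjusted p under 0.05. FOSL2 lies to the right and MYC to the left with both siRNAs, and the JUNB points lie on opposite sides of 0.

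Set directly against each other, the siRNAs differed for 5 of 10 members, JUNB, FOS, EGR1, MYC and FOSL2, against 46.8% of all genes. That number is close to the background. All 5 were lower with siL2 (23.7% of all genes) and 0 higher (23.2%). For FOS, EGR1 and FOSL2 the call rested on 1 library of each siRNA, and without siL1 replicate 2 or siL2 replicate 1 only JUNB and MYC passed. Replicates also moved together: FOS, FOSL1, FOSL2, JUN, ATF3, EGR1 and MYC, 7 of 10 members, were higher in replicate 2 in all 3 groups. The same held for 19.3% of the genes tested. The labels do not say what a replicate number marks.

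Lists of related genes were then counted. The lists were chosen with earlier results of these data known, so their shares are a description and not independent support. Among 22 tested AP-1 partners and other bZIP factors of 25 listed, 9 rose and 5 fell with siL1 (63.6% called, against 50.4% of all genes), and 6 rose and 6 fell with siL2 (54.5%, against 45.8%). The median log2 fold changes were 0.21 and -0.03. ATF2, a JUN partner at cAMP response elements, stood at 76.1 and 78.01 CPM with siControl, 109 and 105 CPM after siL1, and 120.6 and 120.5 CPM after siL2. It rose by 0.47 and 0.64 on the log2 scale (adjusted p = 2.39e-06 and 1.61e-07, edgeR). MAFF, a small MAF protein without an activation domain, followed the pattern of JUNB: it rose by 0.58 with siL1 and fell by 0.30 with siL2 (adjusted p = 6.72e-05 and 0.0111). The fall ended without siControl replicate 2 (adjusted p = 0.0959) or siL2 replicate 1 (adjusted p = 0.0730). CREB5 rose by 0.66 with siL1, and ATF5, a stress-response bZIP factor, fell by 0.71 with siL1 and by 0.42 with siL2, the latter not without siControl replicate 2 (-0.30, adjusted p = 0.0552).

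The other immediate early genes changed about as often as genes in general. Of 28 tested of 31 listed, 9 rose and 4 fell with siL1 (46.4% called), and 6 rose and 6 fell with siL2 (42.9%). Median log2 fold changes were 0.09 and 0.01. CTGF, a secreted matricellular protein, went from 730 and 749 CPM with siControl to 1382 and 1450 CPM with siL1, but stood at 777 and 744 CPM with siL2. IER3 rose with both (0.57 and 0.84 on the log2 scale, adjusted p = 5.10e-05 and 1.99e-06, edgeR), and the antiproliferative gene BTG2 fell with both (-1.74 and -0.76). MCL1, a short-lived survival protein, followed JUNB in direction: it rose by 0.21 with siL1 and fell by 0.54 with siL2 (adjusted p = 0.00153 and 8.93e-07). EGR2, the nearest relative of EGR1 that was tested, stood at 0.64 CPM with siControl.

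Upstream of these genes, the kinases and SRF partners fell more often than they rose with siL2: of 32 tested of 33 listed, 15 fell and 5 rose (23.3% and 22.6% of all genes), with a median log2 fold change of -0.13. With siL1 8 rose and 8 fell (median -0.02), 50% called against 50.4% of all genes. SRF, the factor that binds CArG boxes such as the pair printed for EGR1, stood at 186 and 192 CPM with siControl, 119 and 111 CPM after siL1, and 132 and 128 CPM after siL2. It fell by 0.71 and by 0.54 on the log2 scale (adjusted p = 7.59e-08 and 7.66e-07, edgeR), whereas its partner ELK4 rose by 0.54 and 0.48. MAP2K2, coding for the ERK kinase MEK2, was at 107 and 107 CPM with siControl and 101 and 99.1 CPM with siL1, but at 50.3 and 45.2 CPM with siL2. It fell by 1.16 with siL2 (adjusted p = 5.93e-09). NRAS rose by 0.50 with siL1. BRAF had log2 fold changes of -0.10 and -0.18 (adjusted p = 0.438 and 0.180).

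A list headed by feedback inhibitors of the ERK pathway, many of which ERK activity itself induces, was counted next. It also holds genes that act elsewhere, among them the JNK phosphatase gene DUSP16 and the EGR1 corepressor genes NAB1 and NAB2. Of 16 tested of 17 listed, 6 rose and 4 fell with siL1 (62.5% called, against 50.4% of all genes) and 3 rose and 4 fell with siL2 (43.8%, against 45.8%). The medians were 0.08 and 0.03. Of the same 16, 14 differed between siL2 and siL1 (6 higher, 8 lower with siL2), or 87.5% against 46.8% of all genes. DUSP16, NAB1 and NAB2 were among these 14, so the share is not one of ERK inhibitors alone. Without siControl replicate 1, 6 passed with siL1, without siL2 replicate 2, 4 with siL2, and without siL1 replicate 1, 9 differed between the siRNAs. DUSP4, a nuclear phosphatase of ERK, rose by 0.74 with siL1 and by 0.22 with siL2 (adjusted p = 3.78e-07 and 0.00626, edgeR), the latter not without siL2 replicate 2 (adjusted p = 0.0623). DUSP7 fell by 0.61 with siL2, and the JNK phosphatase DUSP16 fell by 1.05 with siL1 and by 0.43 with siL2, the latter not without siControl replicate 1 (adjusted p = 0.0973). The EGR1 corepressors moved with siL1: NAB1 fell by 0.65 (adjusted p = 3.72e-06) and NAB2 by 0.43 (adjusted p = 0.0181). The NAB2 call was absent with DESeq2 (adjusted p = 0.0575) and without siControl replicate 1 or siL1 replicate 1 (adjusted p = 0.144 and 0.143).

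Genes known as AP-1 targets, in a list also chosen with earlier results known, leaned higher. Of 32 tested of 37 listed, 19 rose and 5 fell with siL1 (median log2 fold change 0.40), and 13 rose and 5 fell with siL2 (median 0.26), or 75.0% and 56.2% called against 50.4% and 45.8% of all genes. AXL, VIM and CD44 are also among the line markers. The urokinase gene PLAU stood at 112 and 124 CPM with siControl, 185 and 202 CPM after siL1, and 165 and 179 CPM after siL2. It rose by 0.72 and 0.54 on the log2 scale (adjusted p = 9.06e-07 and 1.24e-05, edgeR). The cytokine IL11 rose by 1.92 and 0.86. MMP1, the collagenase whose promoter is a textbook AP-1 site, went the other way: 9.12 and 12.9 CPM with siControl, 6.25 and 7.67 CPM after siL1, and 2.24 and 3.53 CPM after siL2. It fell by 0.66 with siL1 (adjusted p = 0.0104) and by 1.95 with siL2 (adjusted p = 1.05e-05). The siL1 call ended without siControl replicate 2 (-0.39, adjusted p = 0.144) or siL1 replicate 1 (-0.52, adjusted p = 0.0846).

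The 5 that fell with siL1 were MMP1, CD44, EREG, VIM and HMGA2, and the 5 that fell with siL2 were MMP1, HMOX1, HMGA2, KRT18 and LIF. EREG, a ligand of the EGF receptor, changed in opposite directions: it fell by 0.40 with siL1 and rose by 0.98 with siL2 (adjusted p = 0.0160 and 1.01e-05, edgeR). HMOX1, an antioxidant enzyme, fell by 1.01 with siL2 (adjusted p = 5.51e-07).

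CCND1, coding for cyclin D1, separated the siRNAs. It stood at 543 and 531 CPM with siControl, 978 and 1066 CPM after siL1, and 538 and 545 CPM after siL2. It rose by 0.93 on the log2 scale with siL1 (adjusted p = 4.75e-09, edgeR), and its log2 fold change with siL2 was 0.01 (adjusted p = 0.897). The EGF receptor ligand HBEGF did likewise, with 1.05 and -0.11. IL6 stood between 0.590 and 2.56 CPM and did not pass with either siRNA (adjusted p = 0.222 and 0.315), though its siL1 value did without siL1 replicate 1 (1.38, adjusted p = 0.00860). Set against each other, 18 of the 32 targets were lower and 4 higher with siL2 than with siL1. This is 68.8% called, against 46.8% of all genes (23.7% lower and 23.2% higher). The summed fibroblast and endothelial markers given above, mostly COL1A1 and PDGFRB, were likewise highest with siL1. All libraries come from a single cell line, and the part of these markers in the target counts was not tested.

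**Figure D4:**
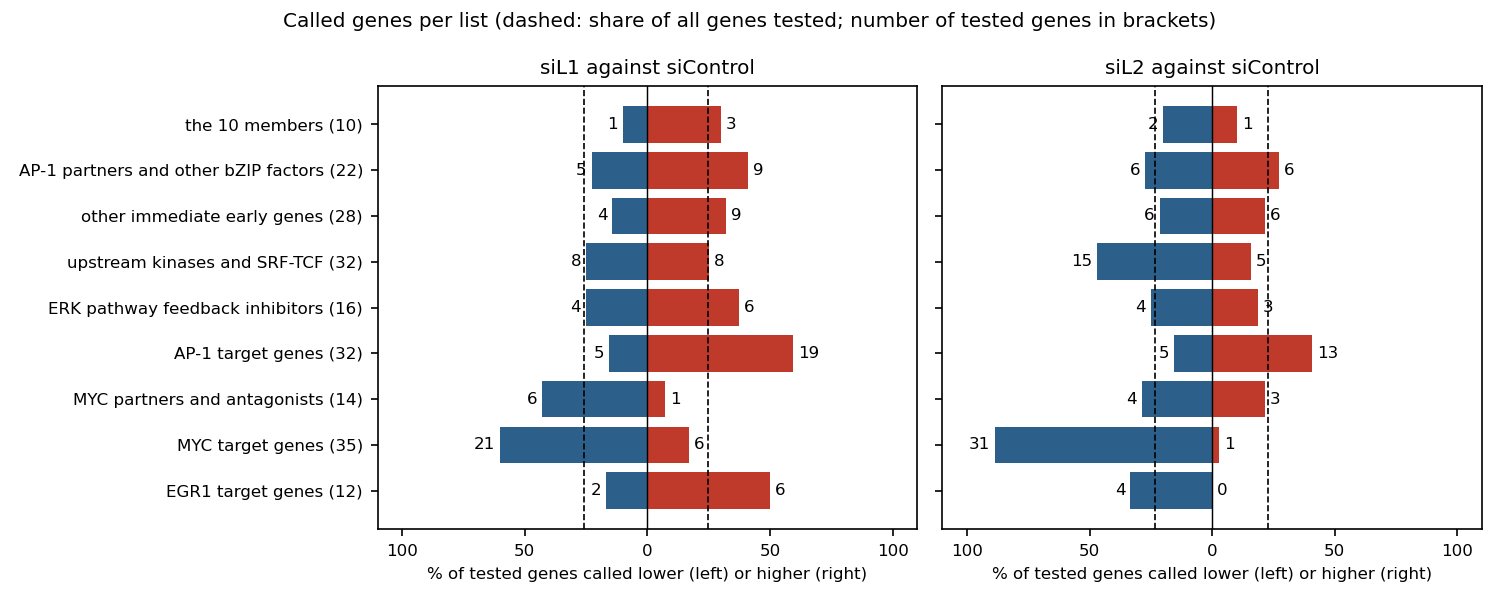
Share of the tested genes of each list called higher (right) or lower (left) with siL1 and siL2 against siControl, with counts beside the bars and dashed lines at the share of all genes tested. MYC target genes extend furthest to the left, with 21 and 31 of 35 lower, and AP-1 target genes furthest to the right, with 19 and 13 of 32 higher.

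Most listed MYC target genes were called lower with each siRNA, as was MYC. This list too was chosen with earlier results known, and whether the genes follow MYC was not tested. Of 35 tested of 36 listed, 21 fell and 6 rose with siL1 (median log2 fold change -0.27), and 31 fell and 1 rose with siL2 (median -0.35), or 77.1% and 91.4% called against 50.4% and 45.8% of all genes. NCL, coding for the nucleolar protein nucleolin, stood at 1882 and 1953 CPM with siControl, 1079.6 and 1081 CPM after siL1, and 1471 and 1556 CPM after siL2. It fell by 0.82 and by 0.35 on the log2 scale (adjusted p = 2.89e-09 and 5.19e-06, edgeR). The ribosome biogenesis gene RRS1 fell by 1.23 and by 0.64, and ODC1, the rate-limiting enzyme of polyamine synthesis, by 0.63 and by 0.73. SRM, coding for spermidine synthase, fell by 1.92 with siL2. Its log2 fold change with siL1 was -0.05 (adjusted p = 0.335), and the siRNAs differed by -1.87 (adjusted p = 5.58e-11). NCL and RRS1 were lower with siL1 than with siL2, the reverse of MYC (log2 difference 0.48 and 0.59 for siL2 against siL1, adjusted p = 3.33e-07 and 1.28e-06). The gene that rose with siL2 was DDX21, a nucleolar helicase (log2 fold change 0.20 and 0.38, adjusted p = 0.00680 and 7.45e-05). The untested gene, EIF4A1, had a count of 0 in every library. The annotation behind the counts is not given, so this count does not show that the gene was silent.

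The partners and antagonists of MYC were called about as often as genes in general. Of 14 tested of 15 listed, 1 rose and 6 fell with siL1, and 3 rose and 4 fell with siL2, with medians of -0.14 and -0.06. This is 50% called with each siRNA, against 50.4% and 45.8% of all genes. With siL1, 4 were called by DESeq2, and 4 without siControl replicate 2 or siL1 replicate 1. MAX, the obligate partner of MYC, fell from 80.8 and 77.0 CPM with siControl to 64.2 and 62.6 CPM after siL1, and 58.9 and 60.4 CPM after siL2 (log2 fold change -0.31 and -0.41, adjusted p = 0.000252 and 3.19e-05, edgeR). The antagonists differed by siRNA: MXD4 fell by 0.60 with siL1 and rose by 0.28 with siL2, MXD1 rose by 0.66 with siL2, and MXI1 fell by 0.42 with siL2.

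EGR1 target genes were 12 tested of 15 listed. With siL1 6 rose and 2 fell (median log2 fold change 0.24), and with siL2 0 rose and 4 fell (median -0.08), or 66.7% and 33.3% called against 50.4% and 45.8% of all genes. Without siControl replicate 1, 2 were called with siL2. ICAM1, an adhesion molecule, went from 3.45 and 3.56 CPM with siControl to 9.44 and 11.8 CPM with siL1, and stood at 3.89 and 4.71 CPM with siL2. VLDLR, a lipoprotein receptor, rose by 1.01 with siL1 and fell by 0.44 with siL2 (adjusted p = 3.32e-06 and 0.00570, edgeR), the latter not without siControl replicate 1 (adjusted p = 0.0515). TGFB1 rose by 0.40 with siL1. Direct comparison of the siRNAs left 7 of 12 lower and 2 higher with siL2. This is 75% called, against 46.8% of all genes (23.7% lower and 23.2% higher).

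**Figure D5:**
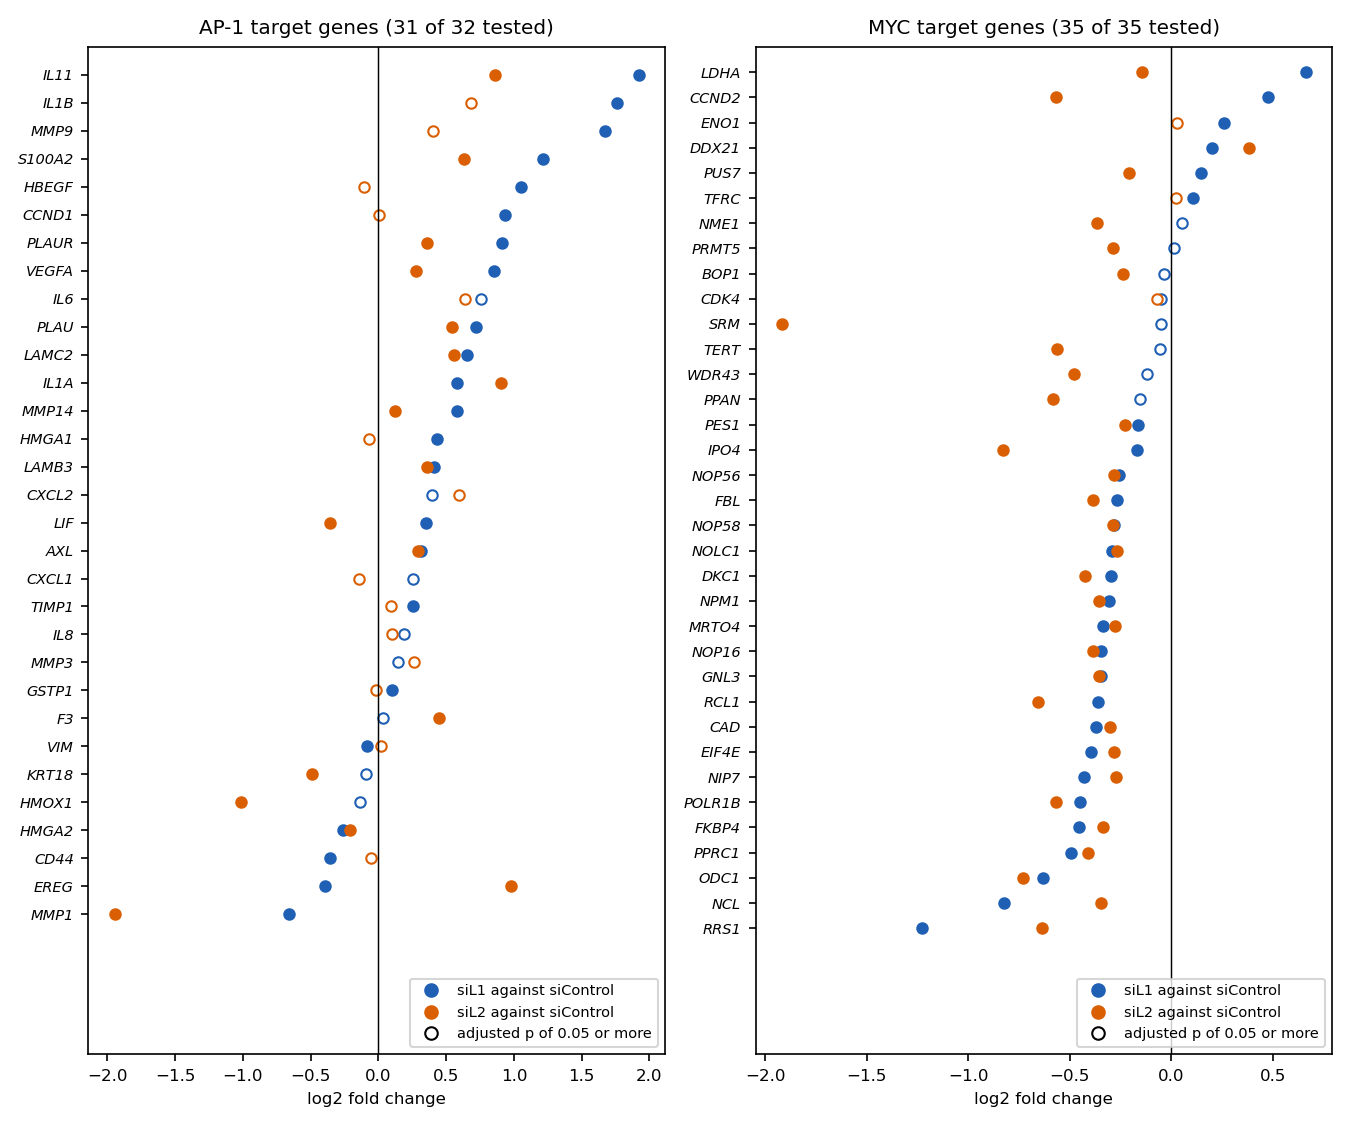
Log2 fold change of 31 of the 32 tested AP-1 target genes (left) and of each tested MYC target gene (right) with siL1 (blue) and siL2 (orange), filled where adjusted p is under 0.05 and sorted by the siL1 value. IL11 is at the top of the AP-1 targets and MMP1 at the bottom, and most MYC targets lie left of 0 with both siRNAs.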

How the data were processed

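RNA-seq was measured in 6 libraries. The submitters' processing notes name TopHat 1.3.3, HTSeq, DESeq and the build hg19; annotation, settings and strand are not given in the sources used here. The authors' deposited table holds a raw count for each gene symbol and library. It also gives, for each siRNA, the authors' linear fold (ratio) to siControl and their adjusted p-value. Depth was 22047738 to 26765079 counts.

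Counts were fitted with edgeR 4.0.16 (R 4.3.3; limma was 3.58.1): filterByExpr by group (13322 of 23368 genes tested), TMM scaling, glmQLFit on group over all 6 libraries (3 residual degrees of freedom, common biological coefficient of variation 3.72%) and two-sided glmQLFTest, Benjamini-Hochberg adjusted over all genes tested. CPM uses library totals. Alternatives were DESeq2's size factors, upper quartile scaling, no filter, 1 CPM in 2 libraries, DESeq2 1.42.0, limma-voom, a replicate block, only the groups compared, and each library left out (14 in all); a lone library left in a group is then assumed to vary like the others.

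Members and lists were chosen with earlier results of these data known. Named genes were KDM1A, the members, up to 4 genes per list with the smallest p in either siRNA comparison among those called, MMP1, PLAU, CCND1, IL6, BRAF, MAX and NAB2 whatever their p, and the 3 genes most like the widest-ranging member by log2(CPM + 0.5). A few genes that this rule names are not reported here, though the counts of their lists include them. HOOK2, EGR2, EIF4A1, DDX21, CD68, COL1A1, PDGFRB and the AP-1 targets listed as lower were named after their values were seen. Exon lengths are from GENCODE 29 (GRCh38), matched by symbol for 10 of 10 members. Promoters are RefSeq's on GRCh38.p14, matched for 8 of 10 members, 250 bases before the start; the counts are on hg19, so no coordinates were joined.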

Additional observations from a re-analysis of the deposited data

Results flagged for a closer look

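For 5 of 10 members the effects of the LSD1 siRNAs differed by the direct test of siL2 against siL1 (edgeR, adjusted p under 0.05), against 46.8% of all genes tested. The number of members that differed is thus close to the background. The log2 difference was -0.67 for FOS, -0.21 for FOSL2, -0.96 for JUNB, -0.41 for EGR1 and -0.26 for MYC, each lower with siL2. Without siL1 replicate 2 it shrank to -0.48 for FOS, -0.11 for FOSL2 and -0.29 for EGR1. The EGR1 difference did not pass with DESeq2 (adjusted p = 0.180). JUNB is the member whose change against siControl passed in opposite directions, 0.31 with siL1 and -0.65 with siL2. The siL1 call was lost in 5 of 14 alternatives, and without siL1 replicate 2 the value was 0.10 (adjusted p = 0.534, edgeR).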

How the results depend on the processing

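For KDM1A, the members and the genes named by the rule, no call reversed in 2184 values over the 14 alternatives. Genes named after their values were seen, such as HOOK2, EREG, HMOX1 and DDX21, were not rerun. Of the 2184 values, 2091 kept their side of the threshold, 59 lost it and 34 gained it. The members called numbered 2 to 5 with siL1, 3 to 4 with siL2 and 2 to 5 for siL2 against siL1 when 1 library was left out. FOSL2 and MYC were called with both siRNAs, and JUNB with siL2, in every alternative. Leaving out 1 library gave 6 to 9 called feedback inhibitors and 4 to 6 called MYC partners with siL1. With siL2 it gave 4 to 7 feedback inhibitors and 2 to 5 EGR1 targets. For siL2 against siL1 it gave 7 to 11 bZIP factors and 9 to 14 feedback inhibitors. With DESeq2 4 MYC partners were called with siL1.

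Replicate numbers are shared by the groups, but the labels do not say that they pair libraries. The replicate 1 minus replicate 2 differences correlated at 0.353 to 0.457 between groups over 10447 genes. With the replicate number as a block, 8036, 7610 and 7700 genes were called with siL1, with siL2 and for siL2 against siL1, and 6, 4 and 6 members. The block added FOSL1 (0.08, adjusted p = 0.0114) and EGR1 (0.29, adjusted p = 0.000211) with siL1, FOS with siL2 (-0.42, adjusted p = 0.0144) and JUN for siL2 against siL1 (-0.08, adjusted p = 0.0160), and ended no member's call. Depth limits FOSB, at 30 to 57 counts.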
